A study of Rattus norvegicus with 48 samples.

Results

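The response of the plantaris to 3 d of hindlimb immobilization (HI) was described in rats of the HRT line, which was bred over generations for a high response to endurance training. The 12 libraries were chosen from the 48 of the series by their labels, and no measured value was used. They came from 12 different female HRT rats of generation 19, aged 14 months, of which 6 were immobilized and 6 were controls (CTRL). In HI rats 1 hindlimb was held in a fiberglass cast with the foot plantar-flexed, and the plantaris of that limb was taken. CTRL rats were a separate group without a cast. All rats had completed a treadmill training programme as young adults and were anaesthetized when muscles were taken. The methods describe an injection of puromycin, a marker of protein synthesis, in rats that had been immobilized. They do not name it for CTRL rats, although the marker was measured in muscle of both groups. The line is outbred, and rats of 1 group differ genetically.

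The plantaris is a fast ankle extensor of the calf. A muscle that is not loaded loses mass because its proteins are broken down faster than they are made. The ubiquitin-proteasome system tags proteins with ubiquitin through ligases such as MuRF1 (Trim63) and atrogin-1 (Fbxo32) and degrades them in the proteasome, while the autophagy-lysosome system engulfs organelles and aggregates. Disused muscle is also known to shift its fuel metabolism, to alter the genes that muscle uses when it loses its nerve, and to remodel its matrix.

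RNA was sequenced from whole muscle. The deposited counts summed to 27.0 to 33.1 M per library in CTRL and 29.0 to 30.7 M in HI, and RNA integrity numbers (RIN) were 8.0 to 8.6 and 7.9 to 8.5. Levels are counts scaled to a common library size (CPM), and differences are log2 fold changes of HI against CTRL with standard errors, from edgeR with n = 6 rats per group. The label of the muscle was checked against fibre type markers: 5 fast fibre markers summed to between 13100 and 15735 CPM in CTRL plantaris and between 746 and 1516 CPM in CTRL soleus of the same line. The 5 slow fibre markers summed to between 2298 and 4513 CPM in CTRL plantaris and between 12328 and 23591 CPM in CTRL soleus. A pair of HI libraries stood apart. HI replicate 4 had the largest response in most gene groups and the lowest fast fibre marker sum, 7079 CPM, against 11513 to 13601 CPM in the other HI rats. In HI replicate 5 the 6 blood markers summed to 3078 CPM, against 242 to 471 CPM in the other 11 rats, and the soleus library with the same number also stood apart, at 10598 CPM.

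After 3 d of immobilization, 322 of 16960 tested genes were differentially expressed genes (DEGs), which is 1.90%. A DEG differed by more than 2-fold with an adjusted p below 0.05. Of these, 154 were higher in HI (0.908%) and 168 were lower (0.991%). The split depended on the scaling: with library totals in place of TMM (trimmed mean of M values) scaling, 287 DEGs were higher and 115 lower, and the median log2 fold change of all genes was 0.174 in place of 0.018. At the adjusted p alone, 867 genes rose (5.11%) and 992 fell (5.85%). In 554 genes (3.27%) all 6 HI values were above all 6 CTRL values, and in 915 genes (5.40%) all were below, so that the groups did not overlap in 8.66% of genes. The median absolute log2 fold change of the DEGs was 1.33, and 38 DEGs changed more than 4-fold, of which 27 were higher. Without HI replicate 4 the number of DEGs was 189, of which 175 were among the 322, and without the other libraries in turn it was at most 472. Gene symbols were available for 227 of the DEGs, since only genes that the study listed as changed in at least 1 of its comparisons carry a symbol here. The counts of named genes below are therefore counts among genes already picked from this series, and they cannot be read against the background percentages as if the genes were chosen at random.

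**Figure D1:**
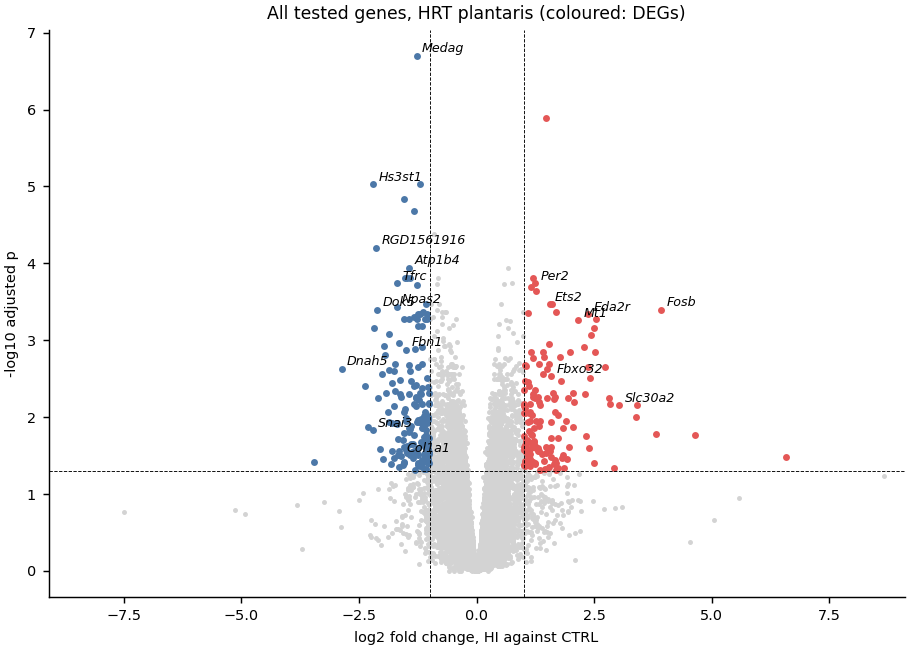
Log2 fold change of HI against CTRL in HRT plantaris (horizontal axis) and -log10 of the adjusted p (vertical axis) for the 16960 tested genes. Coloured points are the 154 DEGs higher and the 168 lower in HI, the dashed lines mark the thresholds, and Medag has the smallest adjusted p (2e-07).

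The largest rises among named DEGs whose groups did not overlap reached a log2 fold change of 3.03. Slc30a2, a zinc transporter, ranged between 0.135 and 1.16 CPM (median 0.404) in CTRL and between 1.43 and 11.3 CPM (median 1.83) in HI (log2 fold change 3.03 ± 0.73, adjusted p = 0.007). Every HI rat was above every CTRL rat, but HI replicates 1 and 4, at 11.3 and 7.98 CPM, were far above the other HI rats, which reached at most 1.88 CPM. Prima1, the membrane anchor of acetylcholinesterase, was measured at 0.792 to 4.0 CPM in CTRL (median 2.4) and 4.78 to 30.8 CPM in HI (median 13.1) (log2 fold change 2.50 ± 0.46, adjusted p = 0.0007). Here HI replicate 4 was the lowest HI rat at 4.78 CPM. Acetylcholinesterase itself (Ache), named here because Prima1 anchors it, fell, with overlap of the groups (log2 fold change -1.39 ± 0.37, adjusted p = 0.013). Eda2r, a receptor of the tumour necrosis factor family, rose from 9.84 to 16.5 CPM in CTRL to 24.8 to 149 CPM in HI (log2 fold change 2.37 ± 0.42, adjusted p = 0.00046). Sh3rf2, an E3 ligase with SH3 domains, lay between 11.5 and 19.9 CPM (median 16.6) in CTRL and between 31.5 and 107 CPM (median 41.2) in HI (log2 fold change 1.78 ± 0.39, adjusted p = 0.0034). Zfand2a, which is induced by arsenite and binds the proteasome, rose by 2.06 ± 0.55 on the log2 scale (adjusted p = 0.013). HI replicate 4 had 203 CPM and the other HI rats 15.2 to 67.6 CPM of Zfand2a. Its call was lost without HI replicate 4 (adjusted p = 0.15), with a log2 fold change of 1.11. Tgif1, a transcriptional repressor, behaved alike, with 29.2 CPM in HI replicate 4 and 3.68 to 8.48 CPM in the others (log2 fold change 1.67 ± 0.42, adjusted p = 0.0086). It was lost without HI replicate 4 (adjusted p = 0.1) at a log2 fold change of 0.93. AABR07054286.1, a clone-based gene name, rose by 1.69 ± 0.30 (adjusted p = 0.00044). Of genes without a symbol, ENSRNOG00000050129 had a log2 fold change of 1.78 ± 0.35 (adjusted p = 0.0016). ENSRNOG00000021248 had 1.06 ± 0.32 (adjusted p = 0.025) and lost its call without HI replicate 1, 4 or 5, or CTRL replicate 1 or 5 (adjusted p from 0.05 to 0.081).

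Among genes with a symbol the largest fall was a log2 fold change of -2.87. Dnah5, an axonemal dynein heavy chain, was measured at 28.5, 76.6, 32.8, 49.9, 44.3 and 31.3 CPM in CTRL replicates 1 to 6 and 2.85, 2.2, 12.9, 1.24, 10.1 and 8.9 CPM in HI replicates 1 to 6 (log2 fold change -2.87 ± 0.60, adjusted p = 0.0024), so that every HI rat was below the lowest CTRL rat. Snai3, a transcriptional repressor of the Snail family, lay between 7.93 and 14.1 CPM (median 9.42) in CTRL and between 0.839 and 4.11 CPM (median 2.02) in HI (log2 fold change -2.21 ± 0.60, adjusted p = 0.015). Hs3st1, which sulphates heparan sulphate, was measured at 24.1 to 32 CPM in CTRL (median 26.2) and 2.59 to 9.62 CPM in HI (median 6.57) (log2 fold change -2.20 ± 0.29, adjusted p = 9.4e-06). Anxa10, an annexin, fell by 2.18 on the log2 scale (SE 0.40, adjusted p = 0.0007), with CTRL replicate 6 at 15.4 CPM above the other CTRL rats at 3.88 to 6.16 CPM. Mc2r, the receptor of adrenocorticotropic hormone, was at 1.22 to 2.38 CPM in CTRL (median 2.14) and 0.0621 to 0.809 CPM in HI (median 0.492) (log2 fold change -2.10 ± 0.49, adjusted p = 0.0057). Palldl1, a palladin-like gene, (log2 fold change -1.87 ± 0.39, adjusted p = 0.0024) and the clone-named processed pseudogene AABR07025284.1 (log2 fold change -1.80 ± 0.40, adjusted p = 0.0036) also had HI values entirely below CTRL. Reads of a pseudogene and its parent gene may not be told apart. RGD1561916, a predicted gene, fell by 2.14 (adjusted p = 6.3e-05). Among genes without a symbol, ENSRNOG00000057133 had a log2 fold change of -1.86 ± 0.35 (adjusted p = 0.00082) and ENSRNOG00000053848 of -1.73 ± 0.39 (adjusted p = 0.0045). Each of these falls kept its call without any single library.

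Most of the listed genes of the ubiquitin-proteasome system rose. Of 23 members tested, 14 were higher in HI at an adjusted p under 0.05, 1 was lower and 8 did not pass, and the median log2 fold change was 0.78, against 0.018 over all genes tested. Only 2 of the 23 carry a symbol through the study's table for this comparison, and of the 21 that its other tables name, 12 rose and 1 fell. Atrogin-1 (Fbxo32, ENSRNOG00000006738) was measured at 144 to 297 CPM in CTRL (median 266) and 344 to 1443 CPM in HI (median 613) (log2 fold change 1.58 ± 0.34, adjusted p = 0.003). MuRF1 (Trim63, ENSRNOG00000016543) was measured at 221, 211, 191, 205, 194 and 176 CPM in CTRL replicates 1 to 6 and 512, 396, 308, 1843, 324 and 309.5 CPM in HI replicates 1 to 6 (log2 fold change 1.62 ± 0.37, adjusted p = 0.0048). All HI rats were above all CTRL rats for both ligases, but HI replicate 4, at 1843 CPM of Trim63, was far above the next HI rat at 512 CPM. The call of Trim63 was lost without HI replicate 4 (adjusted p = 0.052) at a log2 fold change of 0.92. Other ligases and their partners rose as well. Fbxo31, an F-box protein, lay between 33.4 and 41.7 CPM (median 39.3) in CTRL and between 51 and 121 CPM (median 61) in HI (log2 fold change 0.90 ± 0.18, adjusted p = 0.002). Ubr4 is a ligase of the N-degron pathway (log2 fold change 0.75 ± 0.19, adjusted p = 0.0097). Nploc4, a cofactor that delivers ubiquitinated proteins to the segregase VCP, lay between 71.2 and 81.1 CPM (median 74.5) in CTRL and between 91.5 and 265 CPM (median 118) in HI (log2 fold change 1.02 ± 0.25, adjusted p = 0.0077). Trim35, a ligase of the same family as MuRF1, moved the other way, from 274 to 319 CPM in CTRL to 136 to 255 CPM in HI (log2 fold change -0.73 ± 0.16, adjusted p = 0.0029). Of the 7 proteasome genes in the list, grouped by symbol after their values were seen, 5 rose, and their log2 fold changes were between 0.51 and 0.85. The number of rising members was 5 without HI replicate 4, 6 without HI replicate 1, 8 without CTRL replicate 3 and 9 without CTRL replicate 1 or 6. Falling members numbered 2, in place of 1, without HI replicate 3, 5 or 6 and by limma-voom.

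Of 10 members of the autophagy and lysosome list, 7 rose, 1 fell and 2 did not pass (median log2 fold change 0.84), and 6 of the 8 named through the study's other tables rose. Ctsl, the lysosomal protease cathepsin L, lay between 88.3 and 119.6 CPM (median 97.4) in CTRL and between 136 and 619 CPM (median 201) in HI (log2 fold change 1.42 ± 0.30, adjusted p = 0.0028), without overlap. Map1lc3b, which coats autophagosome membranes, was measured at 45.4 to 56.1 CPM in CTRL (median 50.0) and 62.9 to 149 CPM in HI (median 72.7) (log2 fold change 0.78 ± 0.19, adjusted p = 0.0066). Its relative Gabarapl1 (log2 fold change 0.98 ± 0.26, adjusted p = 0.012) and the cargo receptor Sqstm1, also called p62 (log2 fold change 0.98 ± 0.25, adjusted p = 0.011), also rose. Gabarapl1 lost its call without HI replicate 4 (adjusted p = 0.075) and Sqstm1 without HI replicate 4 (adjusted p = 0.068). Tp53inp1, which takes part in autophagosome formation, was at 8.56 to 14.1 CPM in CTRL (median 9.15) and 14 to 34.2 CPM in HI (median 19.4) (log2 fold change 1.03 ± 0.23, adjusted p = 0.0033). Rilp, an effector that moves lysosomes along microtubules, was the member that fell, lying between 16.8 and 25.3 CPM (median 20.7) in CTRL and between 5.0 and 15.8 CPM (median 11.8) in HI (log2 fold change -0.97 ± 0.24, adjusted p = 0.0093). The count of rising members was 3 without HI replicate 4.

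Genes that muscle is known to regulate when it loses its nerve, and genes of the synapse, went both ways. Of 13 members, 5 rose and 4 fell, and 8 of the 13 are named through the study's table for this comparison. Among the 5 others 1 rose and none fell. Hdac4 (ENSRNOG00000020372), a histone deacetylase that is induced by denervation, was measured at 22.5, 18.6, 28.9, 25.3, 24.6 and 17 CPM in CTRL replicates 1 to 6 and 188, 136, 54, 227, 52.2 and 31.2 CPM in HI replicates 1 to 6 (log2 fold change 2.29 ± 0.45, adjusted p = 0.0012). No HI value overlapped CTRL, but the HI rats differed widely among themselves, replicate 6 being just above the CTRL range and replicate 4 the highest. Gadd45a, a growth arrest gene induced by denervation, lay between 4.63 and 7.89 CPM (median 5.42) in CTRL and between 6.2 and 82.2 CPM (median 17.5) in HI (log2 fold change 2.07 ± 0.49, adjusted p = 0.0063). It lost its call without HI replicate 4 (adjusted p = 0.052) at a log2 fold change of 1.37. Myogenin (Myog, log2 fold change 1.26 ± 0.44, adjusted p = 0.057), the cell cycle inhibitor Cdkn1a (log2 fold change 1.09 ± 0.42, adjusted p = 0.088) and the receptor kinase Musk of the neuromuscular junction (log2 fold change 1.14 ± 0.44, adjusted p = 0.086) did not pass. In each of them HI replicate 4 was far above the other rats, at 146, 74.7 and 22.4 CPM against at most 42.8, 32.5 and 4.85 CPM in the other HI rats. Dok5, an adaptor of receptor tyrosine kinases, fell from 8.97 to 13.1 CPM in CTRL to 0.864 to 4.36 CPM in HI (log2 fold change -2.12 ± 0.37, adjusted p = 0.0004). Gap43, a growth cone protein of axons, was at 1.25 to 2.16 CPM in CTRL (median 1.68) and 0.223 to 1.08 CPM in HI (median 0.4) (log2 fold change -1.75 ± 0.37, adjusted p = 0.0025). The number of rising members was 3 without HI replicate 4 and 8 with library totals in place of TMM.

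**Figure D2:**
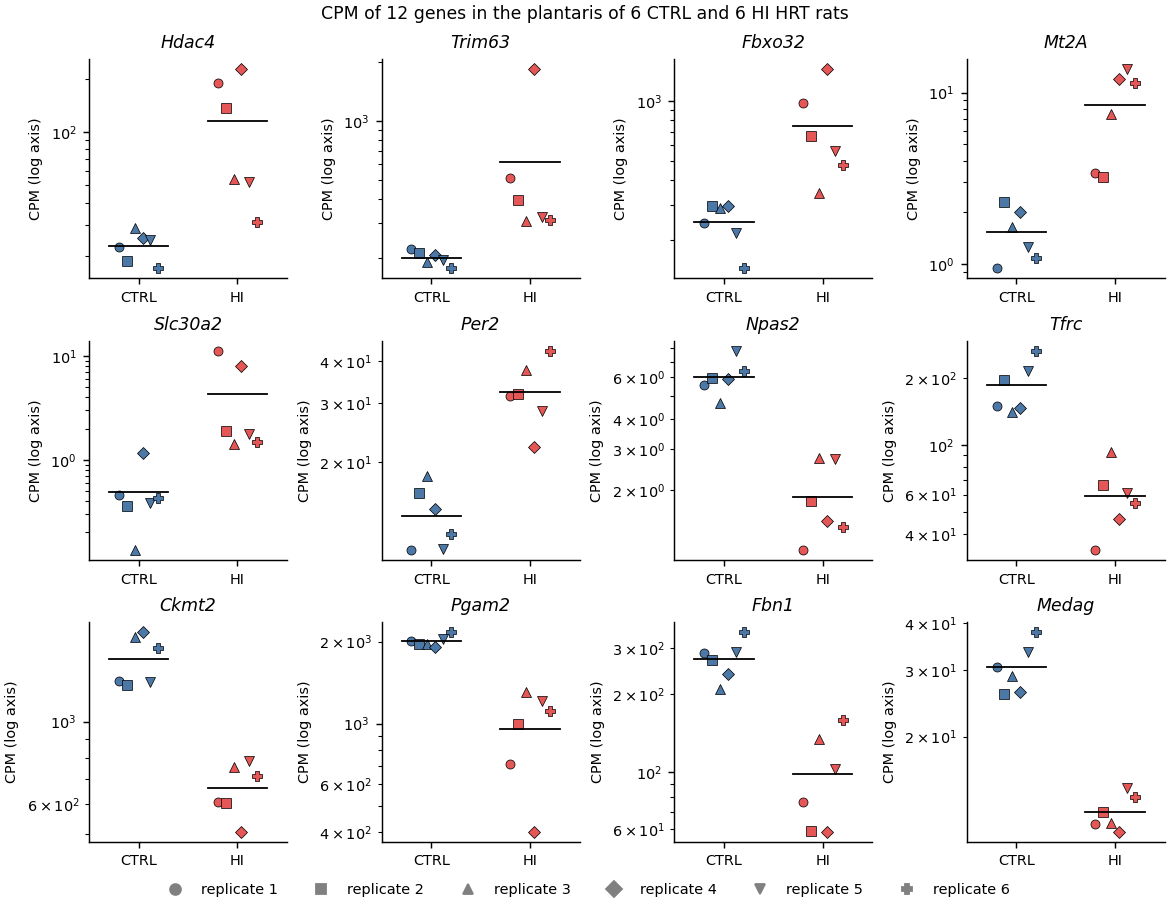
CPM (log axis) of 12 genes in each of the 6 CTRL and 6 HI rats of the HRT line, with a symbol for each replicate number and a line at the group mean. HI replicate 4 (diamond) was the highest HI rat for Hdac4, Trim63 and Fbxo32, reaching 226.5, 1843 and 1443 CPM, whereas Per2, Npas2, Tfrc and Medag separated the groups with a smaller spread.

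Metallothioneins are small cysteine-rich proteins that bind zinc and copper, and Mt1 and Mt2A rose, as did the zinc transporter Slc30a2. Of the 6 genes in this list, 5 rose and 1 did not pass, with a median log2 fold change of 2.29. Among the 6, 4 are named through the study's table for this comparison, and of the 2 others 1 rose. Metallothionein genes are known to be switched on by the factor MTF-1 through short metal response elements in their promoters. The 250 bases before the transcription start are shown for the 2 metallothioneins that rose, for Mt3, which did not pass, and for Slc30a2. Matches to the core letters TGCACNC or TGCGCNC on either strand are in capitals. The sequences are from RefSeq on the GRCr8 build, each on the strand of its gene. They lie at chr19:10832976-10833225 (minus strand) for Mt1, chr19:10838709-10838958 (minus strand) for Mt2A and chr19:10856081-10856330 (minus strand) for Mt3. The window of Slc30a2 is chr5:151843201-151843450 (plus strand), at the first of its 2 RefSeq starts.
Mt1: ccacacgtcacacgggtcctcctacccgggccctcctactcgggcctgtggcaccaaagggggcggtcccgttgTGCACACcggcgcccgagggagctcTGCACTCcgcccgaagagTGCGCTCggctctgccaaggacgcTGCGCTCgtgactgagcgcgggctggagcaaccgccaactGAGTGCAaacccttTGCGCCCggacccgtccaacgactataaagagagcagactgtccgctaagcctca
Mt2A: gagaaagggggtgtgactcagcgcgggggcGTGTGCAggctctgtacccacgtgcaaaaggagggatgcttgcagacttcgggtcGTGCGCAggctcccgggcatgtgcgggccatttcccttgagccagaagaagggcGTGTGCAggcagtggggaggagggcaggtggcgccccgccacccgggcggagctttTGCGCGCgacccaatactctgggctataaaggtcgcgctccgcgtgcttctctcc
Mt3: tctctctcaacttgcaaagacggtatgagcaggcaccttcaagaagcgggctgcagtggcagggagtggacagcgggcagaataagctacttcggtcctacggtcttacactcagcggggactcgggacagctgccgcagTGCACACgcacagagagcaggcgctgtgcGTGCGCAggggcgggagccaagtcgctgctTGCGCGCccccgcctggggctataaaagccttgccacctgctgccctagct
Slc30a2: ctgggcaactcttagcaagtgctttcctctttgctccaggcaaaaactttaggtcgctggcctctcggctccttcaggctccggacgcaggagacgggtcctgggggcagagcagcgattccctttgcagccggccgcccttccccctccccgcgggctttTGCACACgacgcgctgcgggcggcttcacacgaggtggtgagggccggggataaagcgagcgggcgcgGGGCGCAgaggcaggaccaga
The Mt1 window held 6 matches, that of Mt2A 4, that of Mt3 3 and that of Slc30a2 2, and the window at the other Slc30a2 start held 0. Of 33469 RefSeq windows of the same length, 20.6% held at least 1 match, 1.17% at least 3, 0.266% at least 4 and 0.0269% at least 6. A match describes letters and not a bound site.

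Mt2A (ENSRNOG00000043098) was measured at 0.944, 2.3, 1.65, 2.02, 1.26 and 1.08 CPM in CTRL replicates 1 to 6 and 3.39, 3.22, 7.47, 12, 13.7 and 11.3 CPM in HI replicates 1 to 6 (log2 fold change 2.43 ± 0.46, adjusted p = 0.00086). Mt1 (ENSRNOG00000038047) was measured at 0.378, 0.673, 0.506, 0.931, 0.419 and 0.579 CPM in CTRL replicates 1 to 6 and 1.5, 1.31, 2.22, 3.98, 2.46 and 4.11 CPM in HI replicates 1 to 6 (log2 fold change 2.15 ± 0.39, adjusted p = 0.00055). Neither gene had overlapping groups. The order of the HI rats differed from that of Trim63, since HI replicate 1, the second highest for Trim63, was among the 2 lowest HI rats for Mt1 and Mt2A. Mt3, the metallothionein best known from brain, lay between 0.567 and 0.713 CPM (median 0.684) in CTRL and between 0.16 and 0.443 CPM (median 0.35) in HI. It was lower in all HI rats but did not pass the test (log2 fold change -1.19 ± 0.48, adjusted p = 0.094). Slc31a2, a copper transporter, had a log2 fold change of 0.52 ± 0.17 (adjusted p = 0.038). It lost its call without HI replicate 1 or 4, or CTRL replicate 1, 2, 3, 4, 5 or 6 (adjusted p from 0.052 to 0.24), with a log2 fold change of 0.29 without HI replicate 4. LOC100909856, a locus of this list, was at 0 counts in 4 of 6 CTRL rats and at most 3.87 CPM in HI, so no fold change is given (adjusted p = 0.017). It missed the threshold without HI replicate 1 (adjusted p = 0.073). The number of rising genes was 3 without HI replicate 1, and 1 gene fell without HI replicate 6.

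The transferrin receptor Tfrc (ENSRNOG00000001766), through which cells take up iron, was measured at 149.8, 196, 141, 147, 214 and 264 CPM in CTRL replicates 1 to 6 and 33.9, 66.4, 93, 46.7, 60.9 and 54.9 CPM in HI replicates 1 to 6 (log2 fold change -1.69 ± 0.27, adjusted p = 0.00018). Alas1, the rate-limiting enzyme of heme synthesis outside red cells, lay between 77.3 and 121 CPM (median 90.0) in CTRL and between 31.1 and 70.6 CPM (median 41.1) in HI (log2 fold change -1.05 ± 0.19, adjusted p = 0.00053). Neither gene had overlapping groups. Hmox1, which degrades heme, was at 2.97 to 4.13 CPM in CTRL (median 3.75) and 4.34 to 46.4 CPM in HI (median 7.21) (log2 fold change 1.95 ± 0.45, adjusted p = 0.0056). HI replicate 4 was at 46.4 CPM, and the call was lost without HI replicate 4 (adjusted p = 0.12) at a log2 fold change of 0.87. Bach1, a heme-binding repressor of Hmox1, rose from 20.6 to 26.1 CPM in CTRL to 29.8 to 77.6 CPM in HI (log2 fold change 0.89 ± 0.19, adjusted p = 0.0025). Of the 7 genes in the list 2 rose, 2 fell and 3 did not pass, and the number rising was 1 without HI replicate 4. Through the study's table for this comparison 3 of the 7 are named, and of the 4 others 1 rose and none fell.

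Antioxidant genes, many of them known targets of the factor NRF2, rose in 6 of 13 members, with 1 lower and a median of 0.83. The lower member was Gpx1, a glutathione peroxidase named here because it was the 1 that fell (log2 fold change -1.02, adjusted p = 0.039). Pir, an iron-binding protein of this programme, lay between 4.55 and 5.63 CPM (median 5.02) in CTRL and between 5.93 and 30.9 CPM (median 9.55) in HI (log2 fold change 1.49 ± 0.31, adjusted p = 0.0023) and kept its call without any single library. The other rises named here were lost without HI replicate 4. Txnrd1, the thioredoxin reductase, was at 234 CPM there and at 70.9 to 123.7 CPM in the other HI rats (log2 fold change 0.89 ± 0.23, adjusted p = 0.011). It was lost without HI replicate 4 (adjusted p = 0.086) at a log2 fold change of 0.54. Srxn1, sulfiredoxin (log2 fold change 1.84 ± 0.50, adjusted p = 0.014), was lost without HI replicate 4 (adjusted p = 0.16) at a log2 fold change of 1.01. Mafg, a partner of NRF2 (log2 fold change 0.83 ± 0.21, adjusted p = 0.0089), was lost without HI replicate 4 (adjusted p = 0.051). Gclm, a subunit of the enzyme that starts glutathione synthesis (log2 fold change 0.96 ± 0.30, adjusted p = 0.032), was lost without HI replicate 1 or 4, or CTRL replicate 1, 2, 4 or 6 (adjusted p from 0.055 to 0.18). Gsr, glutathione reductase (log2 fold change 0.85 ± 0.27, adjusted p = 0.038), was lost without HI replicate 1 or 4, or CTRL replicate 1, 2, 3, 4, 5 or 6 (adjusted p from 0.056 to 0.24). Without HI replicate 4 the log2 fold changes of Gclm and Gsr were 0.63 and 0.50. Rising members numbered 1 without HI replicate 4 and 3 by limma-voom. No member fell without HI replicate 1, 2 or 4, or without any 1 of the CTRL replicates.

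Immediate early genes, which respond within minutes to stimuli, showed 5 rises and 1 fall among 17, all 5 rises being in genes named through the study's table for this comparison. None of the 12 members named through its other tables rose. Fosb, a subunit of the factor AP-1, was measured at 0.491, 0.436, 0.304, 1.41, 0.419 and 1.93 CPM in CTRL replicates 1 to 6 and 2.85, 12.2, 1.4, 25.4, 6.31 and 24.3 CPM in HI replicates 1 to 6 (log2 fold change 3.92 ± 0.68, adjusted p = 0.0004). Ets2, a transcription factor, lay between 41.8 and 63.2 CPM (median 54.3) in CTRL and between 90.5 and 257 CPM (median 137) in HI without overlap (log2 fold change 1.55 ± 0.27, adjusted p = 0.00034). Egr1 was at 2.64 to 6.44 CPM in CTRL (median 5.38) and 5.76 to 27.1 CPM in HI (median 14.9) (log2 fold change 1.65 ± 0.39, adjusted p = 0.0058). Egr2 (log2 fold change 1.22 ± 0.36, adjusted p = 0.023) and Junb (log2 fold change 1.03 ± 0.34, adjusted p = 0.044) also rose. Egr2 missed the threshold without HI replicate 4 or 6, or CTRL replicate 4 or 6 (adjusted p from 0.054 to 0.093). Junb missed it without HI replicate 1, 2, 4 or 6, or CTRL replicate 1, 2, 3, 4, 5 or 6 (adjusted p from 0.054 to 0.14). Jund was the member that fell (log2 fold change -0.86 ± 0.25, adjusted p = 0.02). It missed the threshold without HI replicate 1, or CTRL replicate 4 or 6 (adjusted p from 0.055 to 0.061). For Fosb the lowest HI rat, at 1.4 CPM, was within the CTRL range. HI replicate 3 was the lowest HI rat for Fosb, Egr1 and Egr2. Rising members numbered 3 without HI replicate 4 or 6, or CTRL replicate 4 or 6. Falling members numbered 3 without HI replicate 6, as many as rose there, and 0 without HI replicate 1, or CTRL replicate 4 or 6.

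The muscle clock is a loop in which ARNTL with CLOCK or NPAS2 activates the Per genes, Ciart and Dbp through E-boxes (CACGTG). PAR bZIP factors such as DBP and TEF act on D-boxes (TTATGTAA), which NFIL3 represses. Of 10 members 4 rose, 2 fell and 4 did not pass. The study's table for this comparison names 5 of the 10, and of the 5 others 1 rose and none fell. Per2 (ENSRNOG00000020254) was measured at 10.9, 16.1, 18.2, 14.5, 11 and 12.2 CPM in CTRL replicates 1 to 6 and 31.6, 32, 37.7, 22.2, 28.4 and 43.1 CPM in HI replicates 1 to 6 (log2 fold change 1.24 ± 0.20, adjusted p = 0.00018). Ciart, a repressor of the loop, lay between 0.964 and 2.16 CPM (median 1.64) in CTRL and between 3.26 and 13.9 CPM (median 4.61) in HI (log2 fold change 2.04 ± 0.47, adjusted p = 0.0048). Tef lay between 97.8 and 148 CPM (median 115) in CTRL and between 158 and 275 CPM (median 201) in HI (log2 fold change 0.84 ± 0.17, adjusted p = 0.0021). Dbp ranged between 8.37 and 22.8 CPM (median 16.8) in CTRL and between 19.9 and 62.6 CPM (median 42) in HI, with overlap (log2 fold change 1.27 ± 0.33, adjusted p = 0.011). Npas2 (ENSRNOG00000013408) moved the other way, measured at 5.59, 5.98, 4.69, 5.91, 7.79 and 6.36 CPM in CTRL replicates 1 to 6 and 1.12, 1.81, 2.73, 1.49, 2.72 and 1.4 CPM in HI replicates 1 to 6 (log2 fold change -1.70 ± 0.29, adjusted p = 0.00037). Nfil3 was at 19.1 to 47.2 CPM in CTRL (median 27.5) and 5.54 to 16 CPM in HI (median 11.6) (log2 fold change -1.34 ± 0.42, adjusted p = 0.034), without overlap. Nfil3 missed the threshold without HI replicate 1, 3, 4 or 5, or CTRL replicate 4, 5 or 6 (adjusted p from 0.05 to 0.11). Arntl itself did not pass (log2 fold change -0.57 ± 0.35, adjusted p = 0.31). HI replicates 3 and 6, the lowest HI rats for Trim63, were the highest for Per2 and Ciart, and HI replicate 4 was the lowest for both. The number of falling members was 1 without HI replicate 1, 3, 4 or 5, or CTRL replicate 4, 5 or 6. Rats of both groups were sampled on the same day, and times of collection are not given in the sources used here. A change in these genes and a difference in sampling time cannot be told apart.

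Promoters of Ciart and Per2 are shown, with the E-boxes of Ciart and the D-box of Per2 in capitals, at chr2:186112247-186112496 (minus strand) and chr9:99496994-99497243 (minus strand) on GRCr8, from RefSeq.
Ciart: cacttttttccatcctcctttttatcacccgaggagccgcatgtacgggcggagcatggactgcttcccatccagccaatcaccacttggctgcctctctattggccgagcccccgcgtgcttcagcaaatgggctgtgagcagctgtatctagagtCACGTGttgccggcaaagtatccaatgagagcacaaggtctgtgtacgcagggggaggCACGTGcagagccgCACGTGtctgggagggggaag
Per2: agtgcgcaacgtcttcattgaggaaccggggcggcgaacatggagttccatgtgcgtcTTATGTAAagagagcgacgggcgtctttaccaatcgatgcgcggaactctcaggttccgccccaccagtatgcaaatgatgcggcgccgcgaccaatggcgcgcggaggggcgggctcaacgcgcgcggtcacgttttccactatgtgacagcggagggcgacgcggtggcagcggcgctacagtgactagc
Both strands were searched, and these letters are the same on both strands for the E-box. Among the 33469 windows 5.59% held at least 1 E-box and 0.0508% held at least 3, the number in Ciart. At least 1 D-box was in 0.828%. Of the 10 clock genes 8 had a window. An E-box was in 3 of the 8 (Ciart, Tef and Bhlhe41), a D-box in Per2 alone, and neither in the other 4 (Per3, Dbp, Nfil3 and Npas2). The windows shown were chosen because they hold matches. The matches describe letters only.

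Of 30 genes of the extracellular matrix tested, 15 fell, none rose and 15 did not pass, and 28 of the 30 had a negative log2 fold change (median -0.97). Of the 30, 15 are named through the study's table for this comparison, and 2 of the 15 others fell. Fibrillin-1 (Fbn1, ENSRNOG00000007302), the backbone of microfibrils, was measured at 288, 269.7, 209, 239.7, 291 and 347 CPM in CTRL replicates 1 to 6 and 76.6, 59, 133, 58.7, 103 and 159 CPM in HI replicates 1 to 6 (log2 fold change -1.50 ± 0.29, adjusted p = 0.0013). Col5a3, a type V collagen chain, lay between 24.6 and 45.7 CPM (median 31.3) in CTRL and between 8.56 and 18.3 CPM (median 12.9) in HI (log2 fold change -1.43 ± 0.26, adjusted p = 0.00053). Loxl1, a cross-linking enzyme of elastin, lay between 3.98 and 7.75 CPM (median 6.14) in CTRL and between 1.56 and 3.88 CPM (median 2.71) in HI (log2 fold change -1.28 ± 0.30, adjusted p = 0.0057). Spon2, a secreted matrix protein, lay between 8.36 and 24.1 CPM (median 13.8) in CTRL and between 5.06 and 7.05 CPM (median 6.14) in HI (log2 fold change -1.31 ± 0.26, adjusted p = 0.0013). Thbs3, a thrombospondin (log2 fold change -1.22 ± 0.29, adjusted p = 0.0059), and Lum, the proteoglycan lumican (log2 fold change -0.97 ± 0.22, adjusted p = 0.0052), also fell. Type I collagen (Col1a1) was measured at 269, 194, 131, 109.5, 335 and 366 CPM in CTRL replicates 1 to 6 and 72.7, 109.6, 137, 29.3, 35.5 and 104 CPM in HI replicates 1 to 6 (log2 fold change -1.61 ± 0.50, adjusted p = 0.032), with overlap. It missed the threshold without HI replicate 1, 4 or 5, or CTRL replicate 1, 5 or 6 (adjusted p from 0.058 to 0.09). Of the 9 genes named as collagens in the list, grouped by symbol after their values were seen, 4 fell and all 9 log2 fold changes were negative, from -1.61 to -0.63. The number of falling matrix genes was 7 without HI replicate 4, 9 without CTRL replicate 6 and 23 without HI replicate 6.

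Of 8 fibroblast and tendon markers, which are all named through the study's table for this comparison, 7 fell, and their summed level was 225 to 507 CPM in CTRL and 75.0 to 203 CPM in HI. Of the 8, 3 (Col1a1, Lum and Tnmd) are also counted among the matrix genes. The other 5 all fell, and their summed level was 68.6 to 91.3 CPM in CTRL and 30.6 to 47.6 CPM in HI. No marker was at 0. Medag (ENSRNOG00000000906), a gene of adipocyte precursors, was measured at 30.5, 25.9, 29, 26.2, 33.5 and 37.8 CPM in CTRL replicates 1 to 6 and 11.7, 12.6, 11.8, 11.2, 14.6 and 13.8 CPM in HI replicates 1 to 6 (log2 fold change -1.27 ± 0.14, adjusted p = 2e-07). Its adjusted p was the smallest of all genes tested. Pi16 and Cd248 mark fibroblasts between the fibres. Pi16 was at 18.8 to 25.4 CPM in CTRL and 8.18 to 15.3 CPM in HI (log2 fold change -0.99 ± 0.22, adjusted p = 0.004). Cd248 was at 4.79 to 6.81 CPM in CTRL (median 5.71) and 1.34 to 3.55 CPM in HI (median 2.99) (log2 fold change -1.15 ± 0.26, adjusted p = 0.0041). Dpp4 (log2 fold change -1.02 ± 0.24, adjusted p = 0.0067) and Islr (log2 fold change -0.94 ± 0.24, adjusted p = 0.011) fell, and tenomodulin (Tnmd), the marker of tendon cells, did not pass (log2 fold change -1.13 ± 0.49, adjusted p = 0.13). In whole muscle, fewer cells of a type and less RNA per cell cannot be told apart. The part of the fibroblast level in the fall of the matrix genes was not tested.

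**Figure D3:**
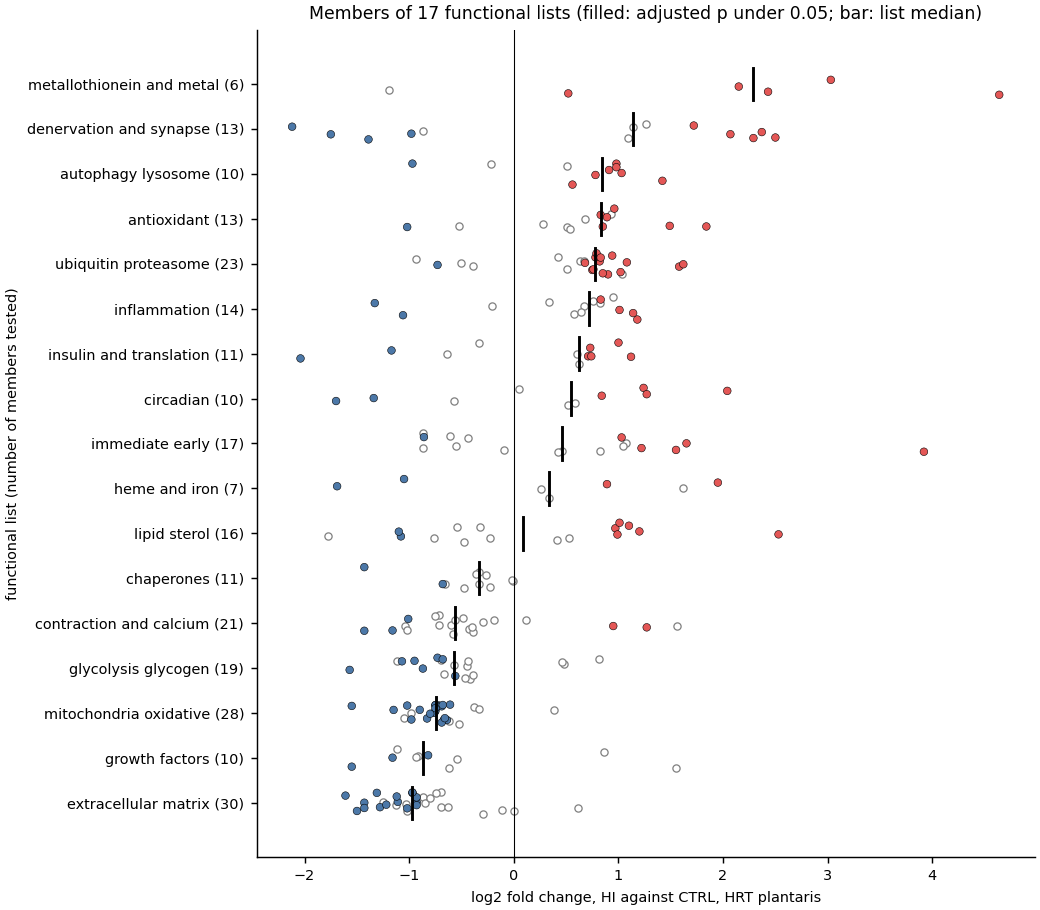
Log2 fold change of HI against CTRL (horizontal axis) of every tested member of 17 functional lists (vertical axis, ordered by list median, with the number tested in parentheses). Filled points passed an adjusted p under 0.05, red higher and blue lower, open points did not, and bars mark list medians, which ran from -0.97 for the matrix to 2.29 for metallothioneins and metal handling.

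Most mitochondrial genes of the list fell by small amounts. Of 28 members listed, 21 fell, none rose and 7 did not pass, with a median log2 fold change of -0.74. Log2 fold changes ran from -1.55 to 0.38, and 3 of the falls were DEGs. In 21 members all HI rats were below all CTRL rats, which held in 5.40% of all genes tested. Only 5 of the 28 carry a symbol through the study's table for this comparison, and 17 of the 23 others fell. Ckmt2 (ENSRNOG00000055450), the mitochondrial creatine kinase of muscle, was measured at 1284, 1255, 1684, 1732, 1273 and 1569 CPM in CTRL replicates 1 to 6 and 608, 604, 754, 508, 785 and 716 CPM in HI replicates 1 to 6 (log2 fold change -1.15 ± 0.21, adjusted p = 0.00065). Ndufs1, a core subunit of complex I, lay between 552 and 644 CPM (median 602) in CTRL and between 273 and 423 CPM (median 372) in HI (log2 fold change -0.75 ± 0.15, adjusted p = 0.0021). Sdhc, of complex II, lay between 277 and 343 CPM (median 309) in CTRL and between 133 and 216 CPM (median 200.3) in HI (log2 fold change -0.72 ± 0.17, adjusted p = 0.0066). Atp5g3, of the ATP synthase, lay between 323 and 412 CPM (median 360.2) in CTRL and between 164 and 238 CPM (median 223) in HI (log2 fold change -0.76 ± 0.18, adjusted p = 0.007). Hadh, an enzyme of fatty acid oxidation, was at 155 to 188 CPM in CTRL (median 170.2) and 77.1 to 127 CPM in HI (median 104) (log2 fold change -0.75 ± 0.16, adjusted p = 0.0034). Mrpl12, a mitochondrial ribosomal protein, was at 93.4 to 109 CPM in CTRL (median 94.8) and 41.5 to 71.4 CPM in HI (median 55.6) (log2 fold change -0.83 ± 0.20, adjusted p = 0.0063). Grouped by symbol after their values were seen, all 5 complex I subunits, both succinate dehydrogenase subunits and all 3 ATP synthase subunits of the list fell, with log2 fold changes between -0.80 and -0.61. Of the coactivators that drive mitochondrial gene expression, Ppargc1a (log2 fold change -0.38 ± 0.28, adjusted p = 0.4) and Ppargc1b (log2 fold change -0.62 ± 0.28, adjusted p = 0.14) did not pass. No other regulator of these genes is named here. Uncoupling protein 3 (Ucp3) ranged between 60.8 and 149 CPM (median 124) in CTRL and between 63.5 and 259 CPM (median 166) in HI and did not pass (log2 fold change 0.38 ± 0.51, adjusted p = 0.68). Without HI replicate 4 the number of falling members was 11, while each gene named here with a fall kept its call.

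Glycolytic genes were lower in 7 of 19 members, with none higher and a median of -0.57. Only 4 of the 19 are named through the study's table for this comparison, and 4 of the 15 others fell. Pgam2 (ENSRNOG00000013532), the muscle phosphoglycerate mutase, was measured at 2018, 1952, 1963, 1915, 2051 and 2165 CPM in CTRL replicates 1 to 6 and 714, 993, 1305, 401, 1213 and 1115 CPM in HI replicates 1 to 6 (log2 fold change -1.07 ± 0.29, adjusted p = 0.015). Pkm lay between 2530.0 and 3242 CPM (median 2798) in CTRL and between 1162 and 2013 CPM (median 1743) in HI (log2 fold change -0.73 ± 0.20, adjusted p = 0.017). Tpi1 lay between 2159 and 2702 CPM (median 2292) in CTRL and between 578 and 1765 CPM (median 1247) in HI (log2 fold change -0.87 ± 0.26, adjusted p = 0.028). Eno3, the muscle enolase, lay between 5885 and 6851 CPM (median 6264) in CTRL and between 2313 and 4778 CPM (median 4142) in HI (log2 fold change -0.68 ± 0.22, adjusted p = 0.036). Fbp2, the muscle fructose bisphosphatase that runs against glycolysis, was at 63 to 92.7 CPM in CTRL (median 83.6) and 8.14 to 45.4 CPM in HI (median 27) (log2 fold change -1.57 ± 0.52, adjusted p = 0.041). Pgk1 was at 1175 to 1303 CPM in CTRL (median 1256) and 633 to 947 CPM in HI (median 887) (log2 fold change -0.56 ± 0.16, adjusted p = 0.02). In 9 of the 19 members all HI rats were below all CTRL rats, which held in 5.40% of all genes tested. Pgam2 kept its call without any single library. Pkm missed the threshold without HI replicate 4 (adjusted p = 0.057) and Pgk1 without HI replicate 4 (adjusted p = 0.065). Tpi1 missed it without HI replicate 1, 2 or 4, or CTRL replicate 6 (adjusted p from 0.053 to 0.089). Eno3 missed it without HI replicate 1, 2 or 4, or CTRL replicate 2, 3, 4, 5 or 6 (adjusted p from 0.05 to 0.11). Fbp2 missed it without HI replicate 1, 2 or 4, or CTRL replicate 1, 2, 3, 4, 5 or 6 (adjusted p from 0.052 to 0.11). The number of falling members was 1 without HI replicate 4, 3 without HI replicate 1 or 2, or CTRL replicate 6 and 4 without CTRL replicate 2, 3, 4 or 5. By limma-voom 1 member rose. The insulin-responsive glucose transporter Slc2a4 lay between 422 and 632 CPM (median 513) in CTRL and between 127 and 546 CPM (median 403) in HI and did not pass (log2 fold change -0.47 ± 0.24, adjusted p = 0.2).

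In lipid metabolism 6 of 16 members rose and 2 fell. Named through the study's table for this comparison are 7 of the 16, and of the 9 others 2 rose and none fell. Thrsp, a regulator of fat synthesis, lay between 2.51 and 6.38 CPM (median 4.86) in CTRL and between 5.12 and 72.5 CPM (median 22.5) in HI (log2 fold change 2.53 ± 0.46, adjusted p = 0.00053). HI replicate 6 was within the CTRL range. Dgat2, the enzyme of the last step of triglyceride synthesis, was at 22.6 to 49 CPM in CTRL (median 33.7) and 68.1 to 99.1 CPM in HI (median 76) (log2 fold change 1.20 ± 0.24, adjusted p = 0.0017). Pnpla7, a lysophospholipase, lay between 57.4 and 81.3 CPM (median 74.6) in CTRL and between 89.8 and 277 CPM (median 142) in HI (log2 fold change 1.10 ± 0.24, adjusted p = 0.0035). Neither gene overlapped. Acsl4, which activates long fatty acids (log2 fold change 0.97 ± 0.26, adjusted p = 0.013), missed the threshold without HI replicate 4 (adjusted p = 0.07). Insig1, which holds back sterol synthesis (log2 fold change 0.99 ± 0.28, adjusted p = 0.021), missed it without HI replicate 4 (adjusted p = 0.18) at a log2 fold change of 0.53. Fasn (log2 fold change -0.48 ± 0.26, adjusted p = 0.23) and Srebf1 (log2 fold change -0.76 ± 0.34, adjusted p = 0.14) did not pass. Rising members numbered 3 without HI replicate 4, and of falling members 0 without HI replicate 1 or 4 and 1 without CTRL replicate 4 or 6.

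Genes of insulin signalling and translation control rose in 5 of 11 members and fell in 2. Among the 11, 4 are named through the study's table for this comparison, and of the 7 others 4 rose and none fell. Eif4g3, a scaffold of translation initiation, lay between 87.9 and 103 CPM (median 94.8) in CTRL and between 129 and 264 CPM (median 191) in HI (log2 fold change 1.00 ± 0.17, adjusted p = 0.00044). The growth factor receptor Igf1r lay between 8.98 and 11.9 CPM (median 9.24) in CTRL and between 13.6 and 21.3 CPM (median 15.3) in HI (log2 fold change 0.73 ± 0.16, adjusted p = 0.0035). Foxo1, a transcription factor that insulin signalling keeps out of the nucleus, lay between 6.5 and 8.99 CPM (median 8.05) in CTRL and between 9.62 and 32.1 CPM (median 14.8) in HI (log2 fold change 1.12 ± 0.25, adjusted p = 0.004). These 3 genes had no overlap. Irs1, the docking protein of the insulin receptor, was at 64.4 to 189 CPM in CTRL (median 79.9) and 26.4 to 77.7 CPM in HI (median 42.8) (log2 fold change -1.17 ± 0.27, adjusted p = 0.0051). CTRL replicate 6 was at 189 CPM and the other CTRL rats at 64.4 to 98.6 CPM. Pik3r1 (log2 fold change 0.71 ± 0.21, adjusted p = 0.023) missed the threshold without HI replicate 2 or 4, or CTRL replicate 1, 4 or 6 (adjusted p from 0.051 to 0.089). Eif4ebp1, an inhibitor of translation initiation (log2 fold change 0.74 ± 0.22, adjusted p = 0.025), missed it without HI replicate 4, or CTRL replicate 1 or 6 (adjusted p from 0.051 to 0.13). The number of rising members was 3 without HI replicate 4, or CTRL replicate 1 or 6, and of falling members 1 without HI replicate 6, or CTRL replicate 6.

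Of 10 growth factor genes 3 fell and none rose. Named through the study's table for this comparison are 5 of the 10, and of the 5 others 1 fell. Vegfa, which maintains capillaries, was measured at 228, 259, 260.2, 239, 270.1 and 243 CPM in CTRL replicates 1 to 6 and 53.6, 89.5, 240.3, 57, 125 and 128 CPM in HI replicates 1 to 6 (log2 fold change -1.16 ± 0.28, adjusted p = 0.0068). HI replicate 3 was in the CTRL range. Fgf6, a growth factor of muscle, was at 0.573 to 1.15 CPM in CTRL (median 0.826) and 0.0311 to 0.509 CPM in HI (median 0.283) (log2 fold change -1.55 ± 0.38, adjusted p = 0.0085). Pdgfc was at 3.61 to 5.11 CPM in CTRL (median 4.48) and 1.24 to 3.72 CPM in HI (median 2.7) (log2 fold change -0.82 ± 0.23, adjusted p = 0.019) and missed the threshold without HI replicate 1 or 4 (adjusted p from 0.058 to 0.064). The number of falling members was 5 without HI replicate 6 and 6 by limma-voom. Rising members numbered 1, in place of 0, without HI replicate 1, 3 or 5, or CTRL replicate 3, and 2 with library totals.

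Among 21 genes of contraction and calcium handling 2 rose and 3 fell, where 5.11% of all genes tested rose and 5.85% fell. Through the study's table for this comparison 7 of the 21 are named, and of the 14 others 1 rose and none fell. Atp1b4, a muscle protein related to the beta subunits of the sodium pump, lay between 21.4 and 37.4 CPM (median 26) in CTRL and between 7.3 and 13.8 CPM (median 9.79) in HI (log2 fold change -1.43 ± 0.22, adjusted p = 0.00012). Phospholamban (Pln), the inhibitor of the calcium pump of slow fibres, lay between 12.3 and 25.2 CPM (median 19.5) in CTRL and between 27.5 and 54 CPM (median 36.1) in HI (log2 fold change 0.95 ± 0.23, adjusted p = 0.0066). Neither overlapped. The potassium channel Kcnn3, known to appear in denervated fibres, was at 11.5 to 18.7 CPM in CTRL (median 16.4) and 16.8 to 76.7 CPM in HI (median 26.4) (log2 fold change 1.27 ± 0.38, adjusted p = 0.025). Kcnn3 missed the threshold without HI replicate 1 or 4, or CTRL replicate 3 or 6 (adjusted p from 0.051 to 0.11). Jph2, which joins the membranes of the triad (log2 fold change -1.01 ± 0.31, adjusted p = 0.031), missed it without HI replicate 1 or 4, or CTRL replicate 1, 5 or 6 (adjusted p from 0.052 to 0.093). Itgb1bp2, the chaperone melusin (log2 fold change -1.16 ± 0.37, adjusted p = 0.036), missed it without HI replicate 1, 2 or 4, or CTRL replicate 1, 2, 4 or 6 (adjusted p from 0.05 to 0.11). Mybph, a myosin-binding protein, was higher in all HI rats, at 14.4 to 34.9 CPM in CTRL (median 20.9) and 39.4 to 119.7 CPM in HI (median 75.8). It did not pass (log2 fold change 1.56 ± 0.54, adjusted p = 0.051). The number of falling members was 1 without HI replicate 1 or 4, or CTRL replicate 1 or 6 and 5 without HI replicate 5 or 6 and by limma-voom. Rising members numbered 1 without HI replicate 1 or 4, or CTRL replicate 3 or 6. None of the 5 fast fibre markers passed, although Casq1, Myoz1 and Mylpf were lower in all HI rats. Of the 5, 4 had negative log2 fold changes, and Atp2a1 alone had a positive one, 0.12. The summed level of the 5 was 13100 to 15735 CPM in CTRL and 7079 to 13601 CPM in HI. Without HI replicate 6, 1 of them fell. Of the 5 slow fibre markers Pln alone passed, and the other 4 had negative log2 fold changes, down to -1.58 in Ankrd2 (adjusted p = 0.19). Casq2, the calsequestrin of slow fibres (log2 fold change -1.04, adjusted p = 0.055), and Fabp3, a fatty acid binding protein (log2 fold change -0.98, adjusted p = 0.084), passed without HI replicate 5 (adjusted p = 0.021 and 0.04). Without HI replicate 6, and by limma-voom, 1 slow fibre marker fell. Their sum was 2298 to 4513 CPM in CTRL and 1898 to 3715 CPM in HI.

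None of 11 chaperone genes rose and 2 fell, where 5.85% of all genes tested fell. All 11 log2 fold changes were negative, with a median of -0.33. Only 1 of the 11 is named through the study's table for this comparison, and 1 of the 10 others fell. Hspa1l, a chaperone of the Hsp70 family, was at 23.4 to 38 CPM in CTRL (median 31.7) and 7.26 to 18.3 CPM in HI (median 12.5) (log2 fold change -1.43 ± 0.33, adjusted p = 0.005). Dnajb5 was at 98.2 to 147 CPM in CTRL (median 132) and 67.9 to 114 CPM in HI (median 80.5) (log2 fold change -0.68 ± 0.22, adjusted p = 0.038). It missed the threshold without HI replicate 1, 2, 4, 5 or 6, or CTRL replicate 1, 2, 4, 5 or 6 (adjusted p from 0.05 to 0.089). The number of falling members was 1 without HI replicate 1, 2, 5 or 6, or CTRL replicate 1, 2, 4, 5 or 6. It remained 2 without HI replicate 4, where Dnajb5 missed the threshold, so that another member fell there. In HI replicate 4 Hspa1b stood at 105 CPM and in the other HI rats at 4.23 to 8.11 CPM (log2 fold change -0.36 ± 0.60, adjusted p = 0.76). The HI mean of Hspa1b thus rested largely on replicate 4, and among controls CTRL replicate 6 stood apart at 60.2 CPM.

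Of 14 genes of inflammation 4 rose and 2 fell. Among the 14, 4 are named through the study's table for this comparison, and of the 10 others 2 rose and none fell. Nfkbiz, an inducible regulator of NF-kappaB, lay between 1.62 and 3.34 CPM (median 2.92) in CTRL and between 3.23 and 9.16 CPM (median 4.65) in HI (log2 fold change 1.01 ± 0.24, adjusted p = 0.0068). Il6r, the receptor of interleukin 6, lay between 14.9 and 32.1 CPM (median 19.3) in CTRL and between 22.2 and 44 CPM (median 39.4) in HI (log2 fold change 0.83 ± 0.22, adjusted p = 0.015). Ptges, of prostaglandin synthesis, fell without overlap, at 1.1 to 1.68 CPM in CTRL (median 1.28) and 0.192 to 0.712 CPM in HI (median 0.605) (log2 fold change -1.33 ± 0.30, adjusted p = 0.004). The interferon-induced Oas2 was at 0.978 to 2.42 CPM in CTRL (median 1.76) and 0.511 to 1.24 CPM in HI (median 0.849) (log2 fold change -1.06 ± 0.28, adjusted p = 0.012). Ptgs2 (log2 fold change 1.18 ± 0.35, adjusted p = 0.024) missed the threshold without HI replicate 4 or 6, or CTRL replicate 4 or 5 (adjusted p from 0.057 to 0.12). The chemokine Ccl7 (log2 fold change 1.14 ± 0.38, adjusted p = 0.043) missed it without HI replicate 1, 4 or 6, or CTRL replicate 1, 2, 3 or 5 (adjusted p from 0.059 to 0.17). Rising members numbered 2 without HI replicate 4, or CTRL replicate 5, and 9 with library totals in place of TMM.

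Markers of other cells were examined beside these groups. Of 10 leukocyte markers 2 rose and 2 fell, their sum was 19.6 to 43.0 CPM in CTRL and 24.8 to 40.1 CPM in HI, and none was at 0. Clec9a (log2 fold change 0.73 ± 0.17, adjusted p = 0.0056) and Rgs1 (log2 fold change 1.34 ± 0.35, adjusted p = 0.013) rose. Siglec5 (log2 fold change -1.10 ± 0.27, adjusted p = 0.0085) and Siglec10 (log2 fold change -1.04 ± 0.30, adjusted p = 0.022) fell. Rgs1 missed the threshold without HI replicate 4 (adjusted p = 0.057) and Siglec10 without HI replicate 4 or 6, or CTRL replicate 4 (adjusted p from 0.055 to 0.069). None of the 6 blood markers passed, although 1 rose without HI replicate 2 or 6, with library totals and by limma-voom, and the sum of 3078 CPM was that of HI replicate 5 alone. The haemoglobin genes are close copies, between which reads can be split. Of 5 adipocyte markers Thrsp alone passed, and the sum was 46.8 to 141.6 CPM in CTRL and 24.2 to 97.0 CPM in HI. None of 3 smooth muscle markers passed, with sums of 58.6 to 88.3 CPM and 20.9 to 75.6 CPM, but all 3 log2 fold changes were negative and the count rested on single libraries. Without HI replicate 6, calponin (Cnn1, log2 fold change -1.78, adjusted p = 0.01) and leiomodin (Lmod1, log2 fold change -0.85, adjusted p = 0.047) fell, and 1 marker fell without HI replicate 5 and by limma-voom. The sum of 3 nerve markers was 42.5 to 69.1 CPM in CTRL and 61.6 to 149.2 CPM in HI. Among them, Gap43 fell as given above and Stmn4, a protein of growing axons, fell (log2 fold change -1.50 ± 0.39, adjusted p = 0.011). Both were at low levels, Stmn4 reaching at most 1.32 CPM in CTRL. Map1b rose (log2 fold change 0.74 ± 0.24, adjusted p = 0.038) and missed the threshold without HI replicate 1 or 4, or CTRL replicate 1, 3, 4 or 6 (adjusted p from 0.058 to 0.16), as it did by limma-voom.

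The 6 immobilized rats differed in the size of their response. To measure it with genes chosen on other animals, the DEGs of LRT plantaris, the low response line, were used, of which 466 were higher and 413 lower there. The median log2 difference of each HRT rat from the CTRL mean over the 466 genes was 0.96, 0.44, 0.30, 1.40, 0.34 and 0.32 in HI replicates 1 to 6, and over the 413 genes it was -1.13, -0.73, -0.44, -1.57, -0.56 and -0.60. In CTRL rats these medians were between -0.06 and 0.08 and between -0.05 and 0.13. All 6 HI rats were outside the CTRL range for both sets, replicate 4 responded most and replicate 1 next, and replicate 3 least. The median of the ubiquitin-proteasome list was 1.62 in replicate 4 and 1.24 in replicate 1 but 0.18 to 0.40 in the others. The clock list had medians of 0.38 to 0.77 and metallothioneins and metal handling of 1.03 to 2.56. Fibroblast and tendon markers had medians of -1.59 and -1.45 in replicates 4 and 1, and of -1.16 to -0.76 in the others. The size of the muscle loss of each rat was not used here.

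**Figure D4:**
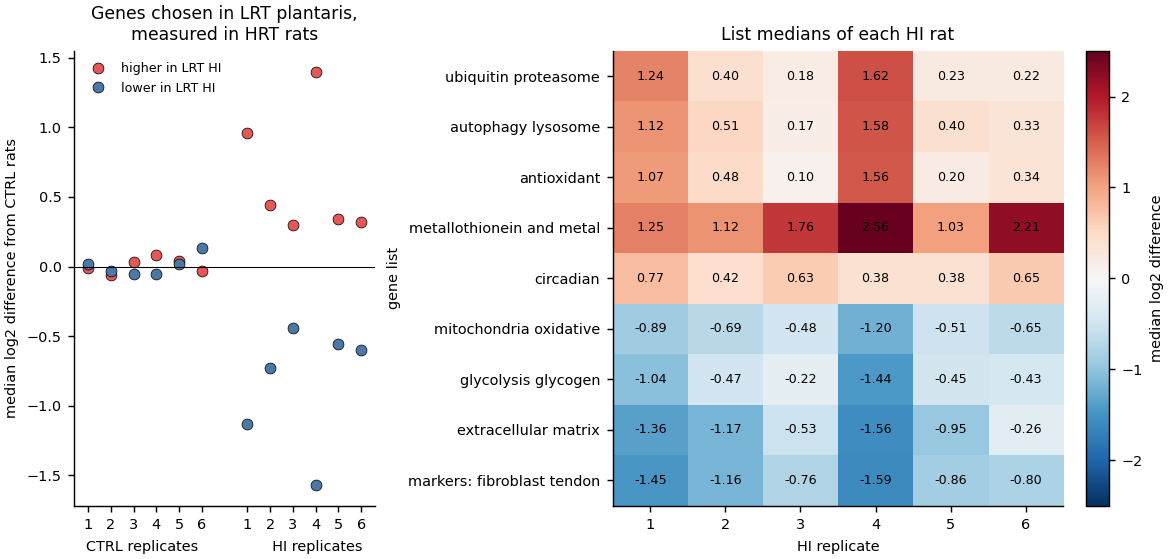
Left, median log2 difference (vertical axis) of each CTRL and HI rat of the HRT line from the CTRL rats over genes chosen in LRT plantaris. Right, median log2 difference of each HI replicate for 9 gene lists, in which replicates 1 and 4 had the largest ubiquitin-proteasome medians, 1.24 and 1.62.

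The same cast in the plantaris of the LRT line, compared with its own controls, gave changes in the same direction for 313 of the 322 DEGs (97.2%), against 76.4% of all genes tested. Of the 313, 253 also passed an adjusted p under 0.05 in LRT, where 28.7% of all genes passed. The median absolute log2 fold change of the 322 genes was 1.33 in HRT, in which they were chosen, and 1.34 in LRT. The difference between the lines in the response was tested itself, and 0 of 16960 genes passed an adjusted p under 0.05 by edgeR, with 1060 genes (6.25%) at an unadjusted p under 0.05, 6 genes by DESeq2 and 2 by limma-voom. Trim63 had 1.62 ± 0.37 in HRT, or 0.92 without HI replicate 4, and 2.60 ± 0.37 in LRT. Fbxo32 had 1.58 ± 0.34 and 2.51 ± 0.34. Hdac4 had 2.29 ± 0.45 and 2.83 ± 0.44. The adjusted p of these 3 differences between the lines was 0.81, 0.8 and 0.91. LRT libraries were not left out in turn, so the 2.60 of Trim63 has no such value to set beside 0.92. Pln had 0.95 ± 0.23 in HRT and -0.19 ± 0.22 in LRT, with an unadjusted p of 0.00077 and an adjusted p of 0.75. Ciart had 2.04 ± 0.47 in HRT and 0.42 ± 0.43 in LRT, and the adjusted p of the difference was 0.76. The smallest p of the difference among named genes were in Tmem51 (1.85 ± 0.41 higher in LRT, adjusted p = 0.36), Tmem37 (1.77 ± 0.46 higher, adjusted p = 0.75) and LOC102555635 (-0.93 ± 0.25, lower, adjusted p = 0.75).

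The soleus, a slow muscle of the same HRT rats in the same cast, was compared next. The difference between the muscles passed an adjusted p under 0.05 in 16 genes (0.0943%), of which 7 were higher and 9 lower in the plantaris response, with 2088 genes (12.3%) at an unadjusted p under 0.05. Of the 16, 3 have a symbol. Hs3st1 fell by 2.20 in plantaris and had 0.24 ± 0.31 in soleus (difference -2.44 ± 0.42, adjusted p = 0.014). Gabrr1, a subunit of GABA receptors, had -1.62 ± 0.37 in plantaris and 1.44 ± 0.46 in soleus (difference -3.06 ± 0.60, adjusted p = 0.033). Its levels were 4.15 to 10.2 CPM in CTRL plantaris and at most 0.743 CPM in CTRL soleus. Glrx, glutaredoxin, had -0.26 ± 0.20 in plantaris and 1.15 ± 0.21 in soleus (difference -1.41 ± 0.30, adjusted p = 0.033). This count rested on single libraries, from 1 without CTRL replicate 3 and 2 without CTRL replicate 4 or HI replicate 4 to 26 without HI replicate 3. Hs3st1 kept its call without any single library (adjusted p from 0.00086 to 0.039). Gabrr1 missed the threshold without HI replicate 4 or 6, or CTRL replicate 3, 4 or 6 (adjusted p from 0.052 to 0.078). Glrx missed it without HI replicate 1, 2 or 4, or CTRL replicate 1, 3, 4 or 6 (adjusted p from 0.057 to 0.097) and was at 0.05 without CTRL replicate 2. Both also missed it when genes with any count were tested (adjusted p = 0.057 and 0.064), and Glrx with library totals (adjusted p = 0.058) and in a fit of the HRT libraries alone (adjusted p = 0.059). In soleus 2744 of 16960 genes tested (16.2%) passed an adjusted p under 0.05. Of the 23 ubiquitin-proteasome genes 1 rose there and 2 fell, with a median of 0.13. Among 19 glycolysis genes the soleus had 2 rises and no fall, and among 11 chaperones no rise and 8 falls. Among 10 clock genes it had 7 rises and 3 falls, for blood markers 6 rises of 6 and for leukocyte markers 7 rises of 10. The ubiquitin-proteasome and glycolysis counts did not exceed the share over all genes in soleus. Among these lists the difference between the muscles passed an adjusted p under 0.05 in no member by edgeR, in which libraries of both muscles are separate samples. The labels do not state that soleus and plantaris libraries with the same replicate number come from 1 rat. With that assumed, and the rat as a random block in limma-voom, 223 genes passed, against 22 by limma-voom without the block. Of the 286 genes in all lists, 11 were among the 223, and they are named here after their values were seen. The plantaris response was higher for Bach1, Eda2r, Eif4g3, Igf1r and Relb, by 0.86 to 1.96 on the log2 scale. It was lower for Ache, Bhlhe41, Dgat2, Dpp4, Flvcr1 and Pik3ip1, with differences of -1.90 to -0.88. By edgeR without the block the adjusted p of these 11 was 0.052 to 0.2. The median difference of glycolysis genes from the CTRL rats, on the log2 scale, was -1.44 to -0.22 in the plantaris of the 6 HI rats. It was -0.05 to 0.28 in the soleus libraries with the same numbers. For ubiquitin-proteasome genes the medians were 0.18 to 1.62 in plantaris and -0.2 to 0.59 in soleus. For the clock they were 0.38 to 0.77 and 0.92 to 1.35, and for leukocyte markers -0.21 to 0.82 and 0.51 to 1.45. In all 6 numbers plantaris was higher for ubiquitin-proteasome genes and lower for glycolysis, clock and leukocyte genes. For chaperones and blood markers no direction held in all 6. At an unadjusted p under 0.05 the difference between the muscles passed in 5 of 23 ubiquitin-proteasome, 10 of 19 glycolysis, 2 of 11 chaperone, 2 of 10 clock, 0 of 6 blood and 1 of 10 leukocyte genes. Trim63 had 0.21 ± 0.36 in soleus (adjusted p = 0.74) and Fbxo32 0.36 ± 0.33 (adjusted p = 0.48). Hdac4 had 2.02 ± 0.45 (adjusted p = 0.002) and Mt1 2.60 ± 0.39 (adjusted p = 2.7e-05). Npas2 had -1.67 ± 0.28 (adjusted p = 0.00012) and Medag -1.21 ± 0.14 (adjusted p = 1.8e-07).

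**Figure D5:**
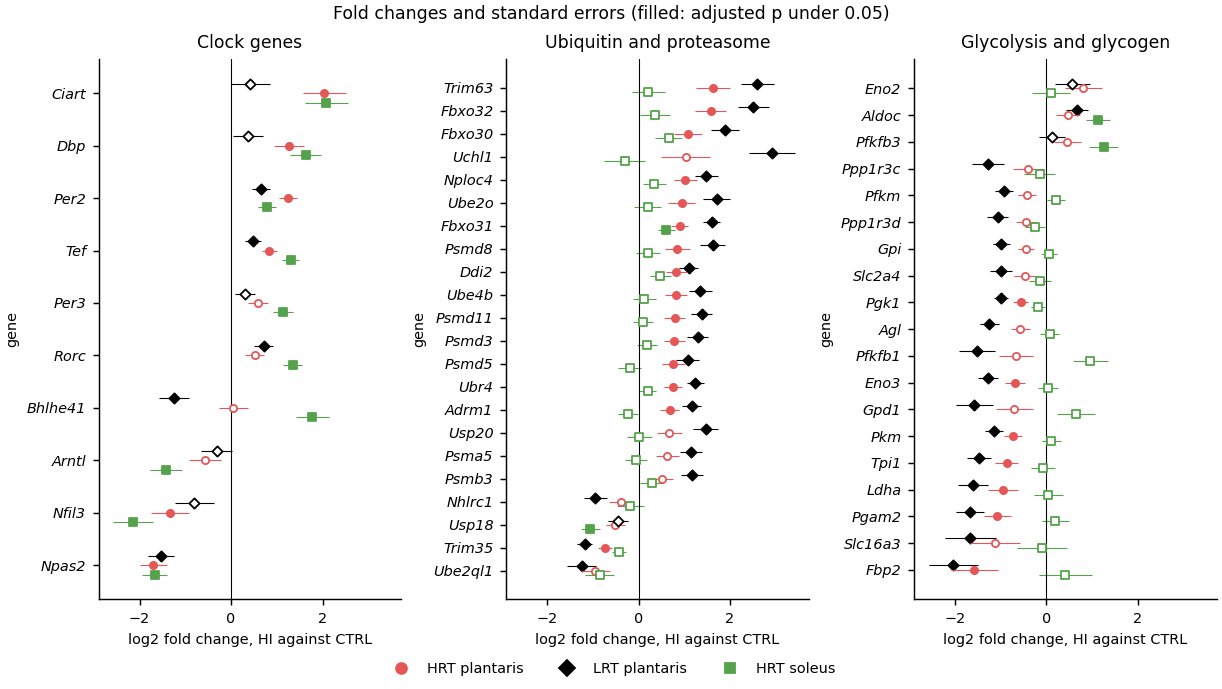
Log2 fold change of HI against CTRL with its standard error (horizontal axis) for clock, ubiquitin-proteasome and glycolysis genes in HRT plantaris (circles), LRT plantaris (diamonds) and HRT soleus (squares), filled where the adjusted p was under 0.05. Trim63 stood at 1.62 in HRT plantaris, 2.60 in LRT plantaris and 0.21 in HRT soleus, and Npas2 at -1.70, -1.53 and -1.67.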

How the data were processed

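The deposited table held estimated counts of 31998 Ensembl genes in 48 libraries, made by the authors with Salmon 0.9.1 (submitters' processing notes) and summed per gene with tximport on rat build Rnor_6.0. Of the values, 66.0% were not whole, and they were rounded here. No column was left without a sample. Genes were kept by filterByExpr and scaled by TMM in edgeR 4.0.16 (R 4.3.3). The quasi-likelihood test was fitted over all 48 libraries with 8 groups and RIN, the terms of the study's own limma-voom model, and p-values were adjusted over all 16960 genes by Benjamini-Hochberg. Interaction terms tested differences between lines and muscles. CPM used TMM library sizes, and the log2 differences of single rats used a prior count of 2. Fold changes are those of the edgeR fit with its default prior. Soleus and plantaris libraries of a rat entered this fit as separate samples. DESeq2 1.42.0, limma 3.58.1 and other settings were tried as alternatives. On simulated data of 16770 genes with 6 rats per group, the test recovered 40.3% of 1.5-fold, 72.7% of 2-fold and 92.4% of 4-fold changes, and 2.2% of its calls were false. On the same data 2.8% of calls were false by limma-voom and 11.3% by DESeq2. In the simulation a gene had the same spread in all groups, and no library stood apart as HI replicate 4 does. These rates therefore need not hold for the real libraries.

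Symbols came from identifier and symbol pairs in the study's gene tables, which held 1148 identifiers (3.59%). Fold changes and p-values in those tables were not used. Genes were named by rule: the 12 largest rises and falls among DEGs without overlap and with at least 1 CPM, up to 6 members per list by p, Trim63, Fbxo32 and Hdac4, the 3 named genes with the smallest p of the other comparisons, marker genes, and members that did not pass where a contrast inside a list is described. The members, lists and rule were chosen with earlier results of these data known. Promoters were taken from RefSeq tables (GRCr8), which held 126 of 159 named genes. Some genes of the lists are counted but not reported here by name.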

Additional observations from a re-analysis of the deposited data

Results flagged for a closer look

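Within a group of 6 rats a value was singled out when its gap to the nearest rat, as a share of the group's range, exceeded Dixon's 95% critical value. Among the 318 groups of the genes chosen by the naming rule, 40 had such a value, where chance gives about 1 in 20, and 39 are given here.

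More of them belonged to HI replicate 4 than to any other rat. There the highest CPM was 203.0 for Zfand2a, 46.4 for Hmox1, 29.2 for Tgif1, 1843.0 for Trim63, 618.8 for Ctsl, 82.2 for Gadd45a, 20.1 for Slc31a2 and 77.6 for Bach1. In the same rat it was 234.2 for Txnrd1, 9.72 for Srxn1, 72.5 for Thrsp, 276.6 for Pnpla7, 134.1 for Insig1 and 67.3 for Eif4ebp1. The lowest HI values of Atp5g3 (164.1 CPM), Casq1 (503.1 CPM), Pvalb (530.5 CPM) and LOC102555635 (8.2 CPM) were also in this rat.

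In HI replicate 5 the highest values were those of red cell genes, namely 823.3 CPM for Hba-a2, 1092.0 CPM for Hba-a1, 28.5 CPM for Hba-a3, 1071.7 CPM for Hbb, 47.2 CPM for Alas2 and 15.3 CPM for Slc4a1. HI replicate 6 was highest for the leukocyte receptors Lilrb4 (5.15 CPM) and Lilrb3 (4.3 CPM), HI replicate 3 for Dnajb5 (114.4 CPM) and HI replicate 2 for Tmem37 (2.48 CPM).

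Among controls, CTRL replicate 6 was highest for Anxa10 (15.4 CPM), Palldl1 (106.8 CPM) and Irs1 (189.0 CPM) and lowest for RGD1561916 (0.926 CPM). CTRL replicate 4 was highest for Slc30a2 (1.16 CPM), Clec7a (1.06 CPM) and RT1-Ba (20.8 CPM), CTRL replicate 1 for LOC100909856 (0.415 CPM) and Stmn4 (1.32 CPM), and CTRL replicate 3 for Il6r (32.1 CPM). CTRL replicate 2 was lowest for Fbxo31 (33.4 CPM).

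A further 21 genes are described outside that rule, and 9 of their 42 groups had such a value. HI replicate 4 was highest for Myog (146.3 CPM), Cdkn1a (74.7 CPM), Musk (22.4 CPM), Hspa1b (105.1 CPM) and Arntl (51.7 CPM), and HI replicate 3 for Ppargc1b (22.6 CPM). Among controls, CTRL replicate 1 was highest for Musk (4.27 CPM), CTRL replicate 6 for Hspa1b (60.2 CPM) and CTRL replicate 2 for ENSRNOG00000053848 (10.4 CPM).

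The response differed between plantaris and soleus, by the interaction term in edgeR, for Hs3st1 (-2.44 on the log2 scale), Gabrr1 (-3.06) and Glrx (-1.41), each lower in plantaris. The call of Hs3st1 held without any single library, while those of Gabrr1 and Glrx were lost without several. The causes of these values were not tested.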

How the results depend on the processing

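The number of DEGs in HRT plantaris, 322, was 1859 with no fold change threshold, 44 at an adjusted p under 0.001 and 186 when each library had to hold 10 counts or more of a gene, and it ranged from 189 to 472 when each library was left out in turn. It was between 229 and 402 under the other settings. With library totals in place of TMM, 287 DEGs were higher and 115 lower (28.6% lower, against 52.2%), with the median log2 fold change of all genes at 0.174 in place of 0.018, and with limma-voom 63.8% were lower. The line difference gave 6 genes by DESeq2, 2 by limma-voom and 0 without each library. The muscle difference, 16 genes, gave 78 by DESeq2, 1 when genes with any count were tested, 64 without RIN, 223 with the rat as a random block in limma-voom (within-rat correlation 0.23), which assumes that libraries of both muscles with the same number come from 1 rat, and 1 to 26 without each library. The cause of these shifts was not tested.

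With the replicate number as a block, HRT plantaris had 362 DEGs (152 higher, 210 lower) and the muscle difference 28 genes. Same-numbered HI and CTRL rats had correlations of -0.04 to 0.06 in their deviations and others -0.06 to 0.09, and only HI replicate 4 matched its own number best, so the numbers do not pair rats. Plantaris and soleus libraries with the same number had correlations of 0.13 to 0.35 in HI, where all 6 matched their own number best and different numbers had -0.23 to 0.12. In CTRL it was -0.05 to 0.21, where 4 of 6 did and different numbers had -0.12 to 0.24, above the highest value of the same number.

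Of 163 single genes followed, 120 were called, 80 of them in all 12 leave-one-out fits and 78 in all alternatives. Signs turned only for Car3, RT1-DMa, Cidea and Scd, none of them called. With library totals Car3 was at 0.10 and RT1-DMa at 0.06. Without each library in turn the log2 fold change ranged from -0.19 to 0.08 for Car3, from -0.25 to 0.15 for RT1-DMa, from -0.04 to 0.55 for Cidea and from -0.66 to 0.14 for Scd. List counts without each library, and under 3 other settings, were added after seeing the data. With 27.0 to 33.1 M counts per library, genes near 1 CPM rest on few reads.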
